A study of Mus musculus with 12 samples.

Results

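A group of 10 genes of the AP-1 transcription factor and of the immediate early response were followed in U2OS cells, a human osteosarcoma cell line, after knockdown of the splicing factor SRSF1 or overexpression of the long non-coding RNA LINC01134. They were the 4 FOS family genes (FOS, FOSB, FOSL1 and FOSL2), the 3 JUN family genes (JUN, JUNB and JUND) and 3 other early response genes (EGR1, IER2 and DUSP1), each found in the gene table by its full name. These 10 genes were among 58735 listed, and 9 of them entered the tests. FOSB, whose mean level over the 12 libraries was just under the minimum of 0.5 FPKM, did not.

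RNA-Seq was done on 12 libraries in 4 groups of 3 replicates. The blank group was U2OS cells for which the labels name no transfection. The OE-LINC01134 group overexpressed LINC01134, by a vector that the labels do not describe. The siSRSF1-2 and siSRSF1-3 groups each received 1 of 2 siRNAs against SRSF1, and cells given a control siRNA were not analysed here, so transfection and knockdown cannot be told apart in a comparison with the blank cells. All groups came from 1 cell line, and nothing in the labels says that replicates were separate cultures, so the p-values may measure technical spread only. The supplementary methods state fewer biological replicates per condition than the labels list. The main methods of the paper place transient transfection in HOS, a different osteosarcoma line. Its results section and the labels give U2OS for the RNA-Seq. The values were FPKM, fragments scaled by gene length and library size, so that levels can be compared between genes. Comparison between libraries rests on the scaling, which differed for 2 siSRSF1-3 libraries as described below with gene length.

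AP-1 is a dimer of a JUN protein with a FOS, ATF or another JUN protein that binds DNA through a basic leucine zipper. Growth factors and stress act through MAP kinases to switch on FOS, EGR1 and the other immediate early genes within minutes and without new protein synthesis, and phosphatases such as DUSP1 then turn the kinases off. FOSL1 and FOSL2 follow later and last longer, and in bone AP-1 proteins are known for their part in osteoblast growth and, for FOS, in osteosarcoma of mice. Nothing in the labels describes a stimulus, so the levels are those of cells in culture.

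The gene table places FOS at chr14:75278774-75282230 on the plus strand, FOSL1 at chr11:65892049-65900573 on the minus strand, FOSL2 at chr2:28392448-28417312 on the plus strand and FOSB at chr19:45467995-45475179 on the plus strand. JUN lies at chr1:58780788-58784327 and JUND at chr19:18279760-18281622, both on the minus strand, and JUNB at chr19:12791496-12793315 on the plus strand. EGR1 is at chr5:138465490-138469315 and IER2 at chr19:13150415-13154908, both on the plus strand, and DUSP1 at chr5:172768090-172771195 on the minus strand. The build of these coordinates is not given in the sources used here. All 10 are protein-coding genes, and the values are sums over each whole gene.

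Between 26237763 and 32954539 reads fell on genes per library. SRSF1 was at 35.9, 19.8 and 20.5 FPKM in blank replicates 1 to 3, at 7.09, 7.46 and 7.41 with siSRSF1-2 and at 3.33, 6.81 and 7.90 with siSRSF1-3. It fell with siSRSF1-2 (log2 fold change -1.72, limma adjusted p = 0.00500). With siSRSF1-3 the log2 fold change was -2.09 and the limma adjusted p of 0.0518 missed the threshold, with every library below every blank library. LINC01134 was at 0.602 ± 0.164 FPKM (SD, n = 3) in blank cells and at 1016 ± 228 with OE-LINC01134. Of 9 osteoblast and mesenchymal markers, 5 reached 0.5 FPKM, and COL1A2, SP7, BGLAP and IBSP did not. Of 4 leukocyte and 3 endothelial markers none reached 0.5 FPKM, and of 4 epithelial markers 2 did.

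Several libraries stood apart from their own group, and each result below is read with that in view. The chi-square of the counts per degree of freedom over genes was 2.67 between blank replicates 2 and 3 and 60.3 and 62.8 between blank replicate 1 and these. In the OE-LINC01134 group it was 2.08 between replicates 1 and 3 and 59.1 and 61.03 between replicate 2 and these. The 3 siSRSF1-2 libraries differed little from each other (2.52 to 3.04) and the 3 siSRSF1-3 libraries differed widely (117 to 397). Blank replicate 1 was closest of all libraries to OE-LINC01134 replicate 2, which belongs to another group. The near-identical pairs exceeded sampling noise and were kept as separate libraries in the main fit. Omitting blank replicate 1 or OE-LINC01134 replicate 2 leaves a near-identical pair in that group. The p-values of such fits rest partly on the spread within the pair. Counting each near-identical set as 1 library left 0 members past the threshold in each of the 4 comparisons, and over all genes 0, 0, 1 and 0 for siSRSF1-2, siSRSF1-3 and OE-LINC01134 against blank and siSRSF1-3 against siSRSF1-2. The calls named below were therefore made only with these libraries counted separately, with at most 1 exception in the OE-LINC01134 comparison. Counting each set as 1 also leaves fewer libraries in the fit, and only 1 for siSRSF1-2. A loss of calls through fewer libraries and one through near-identical libraries cannot be told apart in it.

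In blank cells JUN had the highest mean level of the members, and FOS and FOSB were low. The mean level was 82.8 ± 26.1 FPKM (SD, n = 3) for JUN, 65.5 ± 29.7 for JUNB, 59.5 ± 11.2 for FOSL1, 56.5 ± 37.2 for EGR1 and 50.0 ± 10.8 for DUSP1. JUN was the highest of these genes in every blank library. The order of the others in blank replicate 1 differed from that in blank replicates 2 and 3. Lower in mean level stood IER2 at 36.6 ± 6.27 FPKM, JUND at 32.1 ± 4.13 and FOSL2 at 30.8 ± 1.84, which overlapped each other. FOS, at 3.89 ± 0.746 FPKM, and FOSB, at 0.360 ± 0.0977, were below every other member in every blank library.

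The FOS family mRNA was mostly FOSL1 in all groups. FOSL1, which lacks the strong transactivation domain of FOS, made up 62.7% ± 3.05 (SD, n = 3) of the summed FOS family FPKM in blank cells, 69.0% ± 6.73 with OE-LINC01134, 74.9% ± 0.864 with siSRSF1-2 and 89.4% ± 4.90 with siSRSF1-3. The share of FOSL2 ran the other way, with 32.9% ± 3.28, 28.1% ± 4.28, 20.002% ± 0.792 and 8.72% ± 4.18 in the same order. FOSL1 has a length of 1887 bases and FOSL2 one of 7157, and siSRSF1-3 replicates 1 and 2 carried the length gradient described below. The FOSL1 share was 94.1%, 89.9% and 84.3% in siSRSF1-3 replicates 1, 2 and 3. The part of gene length in these shares was not tested. FOS itself held 4.09% ± 0.228 of the family in blank cells and 1.51% ± 0.727 with siSRSF1-3. The summed family level was 94.5 ± 13.7 FPKM in blank cells and 246.8 ± 109 with siSRSF1-3, where it ranged from 158.7 to 369.3 FPKM. The JUN family sum was 180.4 ± 52.9 FPKM in blank cells and 235.7 ± 17.8 with siSRSF1-3, and JUN was the most abundant of its 3 genes in 11 of the 12 libraries. In siSRSF1-3 replicate 1 it was JUND, with 52.2% of the sum.

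**Figure D1:**
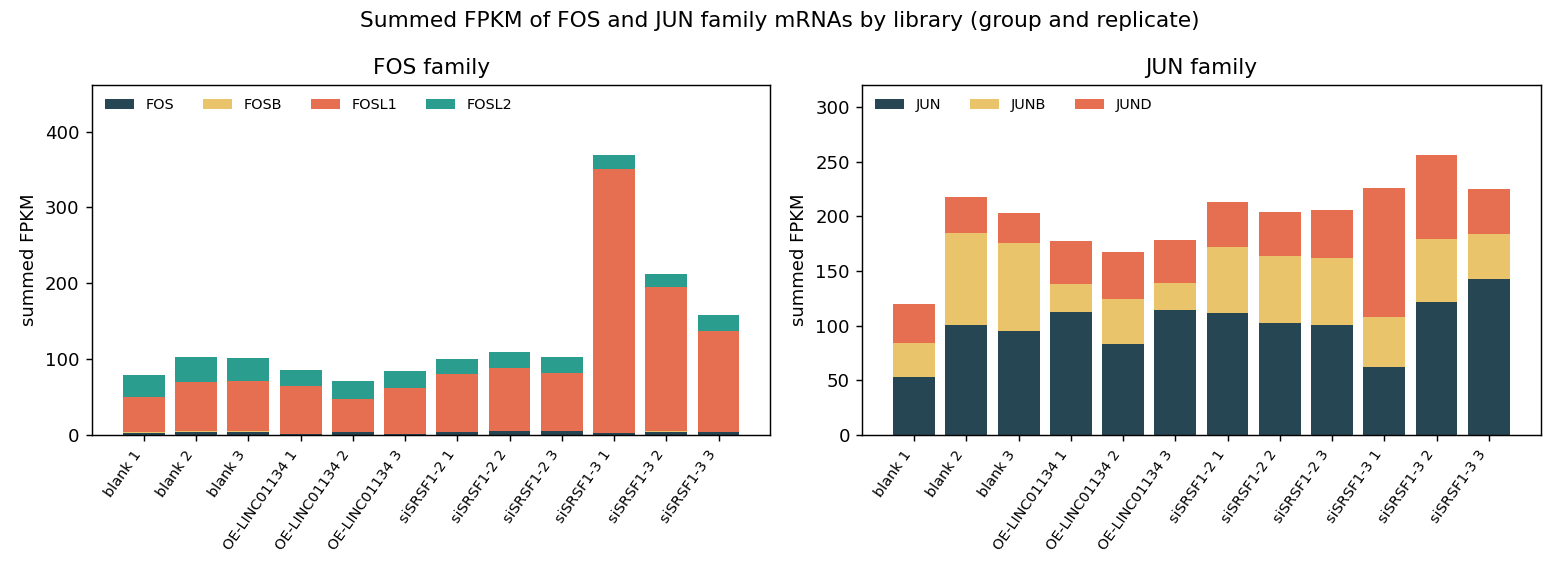
Summed FPKM of the FOS family (left) and the JUN family (right) in each of the 12 libraries, on linear axes from 0, with the colours of a bar giving each gene's part. FOSL1 fills most of every FOS family bar, and the 3 siSRSF1-3 libraries hold the highest family sums, from 158.7 to 369.3 FPKM.

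FOSL1 was highest in the siSRSF1-3 libraries, at 347, 191 and 134 FPKM in replicates 1 to 3. Blank cells were at 46.6, 65.4 and 66.4 FPKM, OE-LINC01134 cells at 63.1, 43.6 and 60.9, and siSRSF1-2 cells at 75.8, 83.1 and 76.1. Thus each siSRSF1-3 library stood above the other 9 libraries, and the siSRSF1-2 libraries stood above the blank libraries by a smaller step. Against blank it differed by a log2 fold change of 1.82 (SE 0.379, limma adjusted p = 0.0612) with siSRSF1-3, which missed the threshold of an adjusted p under 0.05 with a log2 fold change beyond 1. It was 0.41 (SE 0.146, limma adjusted p = 0.0859) with siSRSF1-2 and -0.09 (limma adjusted p = 0.799) with OE-LINC01134. Between the siRNAs the difference was 1.40 (SE 0.352, limma adjusted p = 0.0797), and 1.72 (limma adjusted p = 0.00517) without siSRSF1-3 replicate 3. In bulk RNA, a change in the number of cells with an mRNA and a change in its level per cell cannot be told apart.

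The FOSL1 call turned on the fit and on 1 library. With 1 fit over all 4 groups the log2 fold change of 1.82 had a limma adjusted p of 0.00538, and voom on the recovered reads gave 1.85 with an adjusted p of 0.0334. Without siSRSF1-3 replicate 3 it was 2.13 (limma adjusted p = 0.0119), and over the omissions of 1 library it ranged from 1.28 to 2.13. Omitting replicate 3, here and below, keeps replicates 1 and 2, which carry the length gradient and the differing scaling described below. Over all genes 2192 were then higher and 1992 lower past the threshold against blank, and 2807 and 2551 between the siRNAs. Without blank replicate 1 and siSRSF1-3 replicate 1 no member passed, nor did any of the 17538 genes tested.

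FOSL2 was highest in the blank libraries, at 28.8, 32.5 and 31.0 FPKM. It was at 21.8, 23.5 and 21.8 FPKM with OE-LINC01134, at 20.6, 21.0 and 21.1 with siSRSF1-2 and at 18.6, 16.7 and 21.1 with siSRSF1-3, so all 9 libraries of manipulated cells lay below all 3 blank libraries. The log2 fold change was -0.56 (SE 0.0641, limma adjusted p = 0.00339) with siSRSF1-2, below the minimum size of 1. It was -0.71 (SE 0.172, limma adjusted p = 0.0777) with siSRSF1-3 and -0.46 (SE 0.0995, limma adjusted p = 0.0687) with OE-LINC01134. The 3 comparisons share the blank libraries. Between the siRNAs FOSL2 differed by -0.16 (limma adjusted p = 0.338). Its 3 blank libraries differed less than most genes did, with a log2 range of 0.17 that was above that of 18.0% of the genes tested.

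FOS, the founding member of its family and the classic immediate early gene, was low everywhere and varied most in the OE-LINC01134 group. It was at 3.03, 4.42 and 4.20 FPKM in blank cells and at 1.002, 3.66 and 0.659 with OE-LINC01134, where replicates 1 and 3 rested on 94 and 61 reads. With siSRSF1-2 it was at 4.03, 5.20 and 5.29 FPKM and with siSRSF1-3 at 2.54, 3.78 and 3.28. OE-LINC01134 replicate 2 lay within the blank range and the other OE-LINC01134 libraries were the lowest of all 12. Against blank the log2 fold change was -1.43 with OE-LINC01134 (SE 0.566, limma adjusted p = 0.174), 0.32 with siSRSF1-2 (limma adjusted p = 0.238) and -0.27 with siSRSF1-3 (limma adjusted p = 0.449). Without OE-LINC01134 replicate 2 the first of these was -2.11 (limma adjusted p = 0.00881). That fit keeps a near-identical OE-LINC01134 pair, and over all genes 511 were higher and 1029 lower past the threshold in it. Every siSRSF1-3 library was below every siSRSF1-2 library (log2 fold change -0.59, SE 0.196, limma adjusted p = 0.0910).

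FOSB, a further FOS family gene, was near the limit of these data, with 39 to 141 reads per library. Blank cells gave 0.254, 0.380 and 0.446 FPKM, OE-LINC01134 cells 0.460, 0.428 and 0.403, siSRSF1-2 cells 0.351, 0.585 and 0.401 and siSRSF1-3 cells 0.689, 0.999 and 0.549. The siSRSF1-3 libraries did not overlap the blank libraries. In a fit with no filter on low values the log2 fold change was 0.87 (SE 0.320, limma adjusted p = 0.281).

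JUN, the DNA-binding partner shared by most AP-1 dimers, did not pass the test in any comparison. It was at 52.8, 101 and 95.0 FPKM in blank cells, at 113, 83.4 and 114 with OE-LINC01134, at 111, 103 and 101 with siSRSF1-2 and at 62.6, 122 and 142 with siSRSF1-3. Blank replicate 1 and siSRSF1-3 replicate 1 were the lowest libraries of their groups and of the 12. Log2 fold changes against blank were 0.40 with siSRSF1-2, 0.37 with siSRSF1-3 and 0.36 with OE-LINC01134, with limma adjusted p-values of 0.279, 0.545 and 0.416. The siSRSF1-3 value was -0.077 when all libraries were given an equal FPKM sum.

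JUNB, which can oppose JUN at some promoters, was low in the OE-LINC01134 libraries and in blank replicate 1. Its level was 31.3, 84.6 and 80.7 FPKM in blank cells, 25.8, 41.4 and 24.2 with OE-LINC01134, 60.9, 61.1 and 61.5 with siSRSF1-2 and 45.6, 57.4 and 41.6 with siSRSF1-3. Blank replicate 1 therefore lay inside the OE-LINC01134 range and the other blank libraries above every other library. It differed from blank by -1.01 on the log2 scale with OE-LINC01134 (SE 0.412, limma adjusted p = 0.181), 0.03 with siSRSF1-2 and -0.32 with siSRSF1-3. Without blank replicate 1, which leaves a near-identical blank pair, it was -1.48 with OE-LINC01134 (limma adjusted p = 0.0259). Over all genes 318 were higher and 645 lower past the threshold in that fit. With siSRSF1-2 the log2 fold change of JUNB without blank replicate 1 was -0.43 (limma adjusted p = 0.000206), a turn of direction in a fit of near-identical libraries only. Between the siRNAs it was -0.36 (limma adjusted p = 0.130), with every siSRSF1-3 library below every siSRSF1-2 library.

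JUND, the most constantly expressed JUN gene in most cells, was highest in siSRSF1-3 replicates 1 and 2. The libraries gave 35.7, 32.8 and 27.6 FPKM in blank cells, 38.8, 42.2 and 39.5 with OE-LINC01134, 40.7, 40.4 and 43.8 with siSRSF1-2 and 118, 77.0 and 40.9 with siSRSF1-3. Every library of manipulated cells was above every blank library. The log2 fold change was 0.38 (SE 0.105, limma adjusted p = 0.0425) with siSRSF1-2, under the minimum size of 1, and 0.33 (limma adjusted p = 0.156) with OE-LINC01134. With siSRSF1-3 it was 1.17 (SE 0.383, limma adjusted p = 0.118), and siSRSF1-3 replicate 3 lay within the siSRSF1-2 range. In 1 fit over all 4 groups the same log2 fold change had a limma adjusted p of 0.0189, and without siSRSF1-3 replicate 3 it was 1.58 (limma adjusted p = 0.0119). Between the siRNAs it was 0.79 (limma adjusted p = 0.156), and 1.19 (limma adjusted p = 0.00588) without that library. The values without siSRSF1-3 replicate 3 rest on the siSRSF1-3 libraries with the length gradient described below.

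**Figure D2:**
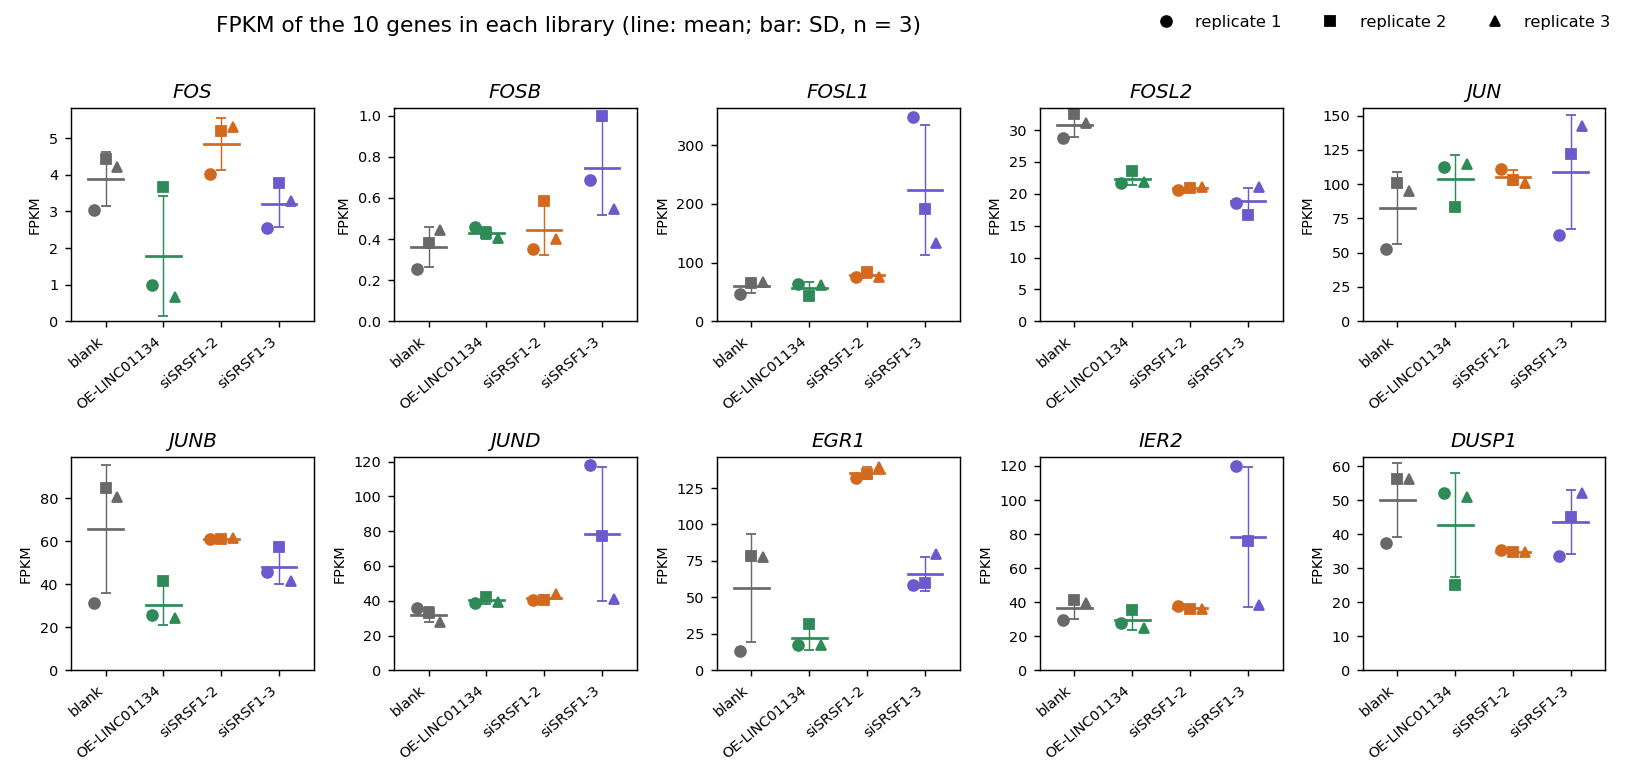
FPKM of each of the 10 genes in each library, on linear axes from 0, by group, with the replicate given by the symbol, the mean as a line and the SD as a bar (n = 3). The lowest siSRSF1-3 value of FOSL1, 134 FPKM, is above every other group, so is the lowest siSRSF1-2 value of EGR1, 132 FPKM, and the lowest blank FOSL2 value, 28.8 FPKM, is above every other group.

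EGR1, a zinc finger transcription factor switched on by ERK and SRF, was highest in the siSRSF1-2 libraries, at 132, 134 and 140 FPKM. Blank cells were at 13.6, 78.3 and 77.6 FPKM, OE-LINC01134 cells at 17.2, 31.6 and 17.4, and siSRSF1-3 cells at 58.8, 60.0 and 79.6. The 3 siSRSF1-2 libraries lay above the other 9, and blank replicate 1 was the lowest library of all. The highest blank library held 5.77 times the lowest, a log2 range of 2.52 that exceeded that of 97.8% of the genes tested. In the siSRSF1-2 group the same ratio was 1.06.

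The spread of the blank libraries set how far EGR1 could be read. Its log2 fold change with siSRSF1-2 was 1.63 (SE 0.678, limma adjusted p = 0.128), and it was 0.79 without blank replicate 1. With OE-LINC01134 it was -1.04 (SE 0.686, limma adjusted p = 0.365), and -1.88 (limma adjusted p = 0.0225) without blank replicate 1. Over all genes 318 were higher and 645 lower past the threshold in the OE-LINC01134 fit without that library. With siSRSF1-3 the log2 fold change of EGR1 was 0.59 (limma adjusted p = 0.564), and -0.25 without blank replicate 1. The comparison of the siRNAs does not use the blank cells, and there every siSRSF1-3 library was below every siSRSF1-2 library by a log2 fold change of -1.05 (SE 0.166, limma adjusted p = 0.0657). Without siSRSF1-3 replicate 3 this was -1.19 (limma adjusted p = 0.00135), on the siSRSF1-3 libraries with the length gradient described below.

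IER2, a short-lived nuclear protein of the early response, was at 29.4, 41.0 and 39.3 FPKM in blank cells and at 27.9, 35.5 and 24.8 with OE-LINC01134. It was at 37.8, 36.2 and 36.0 FPKM with siSRSF1-2 and at 120, 76.1 and 38.1 with siSRSF1-3. Replicates 1 and 2 of siSRSF1-3 were above the other 10 libraries and replicate 3 was inside the blank range. The log2 fold change with siSRSF1-3 was 0.96 (SE 0.416, limma adjusted p = 0.180), and 1.40 (limma adjusted p = 0.0163) without siSRSF1-3 replicate 3. With siSRSF1-2 it was 0.02 and with OE-LINC01134 -0.32 (limma adjusted p = 0.316). Between the siRNAs it was 0.94 (limma adjusted p = 0.130), and 1.38 (limma adjusted p = 0.00450) without siSRSF1-3 replicate 3. The values without that library rest on the siSRSF1-3 libraries with the length gradient described below.

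DUSP1, the phosphatase that inactivates p38 and JNK and is itself an early gene, was at 37.6, 56.2 and 56.4 FPKM in blank cells and at 52.1, 25.0 and 51.1 with OE-LINC01134. It was at 35.4, 34.8 and 34.7 FPKM with siSRSF1-2 and at 33.5, 45.1 and 52.3 with siSRSF1-3. Each siSRSF1-2 library was below each blank library, with blank replicate 1 only slightly above (log2 fold change -0.49, SE 0.164, limma adjusted p = 0.0726). OE-LINC01134 replicate 2 was the lowest of the 12 libraries. With OE-LINC01134 the log2 fold change was -0.28 (limma adjusted p = 0.599), and 0.07 without that library. Between the siRNAs it was 0.30 (limma adjusted p = 0.241), and -0.28 with equal FPKM sums.

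No member passed the threshold in any of the 4 comparisons by limma. Of all 17538 genes tested, 4.95% passed with siSRSF1-2, 1.26% with siSRSF1-3 and 0.85% with OE-LINC01134 against blank, and 0.0855% between the siRNAs. With an unadjusted p under 0.05 and the same fold change, 0 members passed with siSRSF1-2 (6.49% of all genes), 2 with siSRSF1-3 (FOSL1 and JUND, against 14.8%), 2 with OE-LINC01134 (FOS and JUNB, both lower, against 7.45%) and 2 between the siRNAs (FOSL1 and EGR1, against 16.4%). On the recovered reads voom called 0, 1, 0 and 0 members in the same order, the 1 being FOSL1. Over all genes it called 176 higher and 411 lower with siSRSF1-3.

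The libraries of the compared groups did not overlap for 6 of the 9 members with siSRSF1-2 (49.5% of all genes), 3 with siSRSF1-3 (37.2%), 2 with OE-LINC01134 (30.6%) and 5 between the siRNAs (54.6%). With 9 members, these counts do not set the members apart from other genes. An exact two-sided permutation test of 3 against 3 libraries cannot give a p below 0.1. It gives 0.1 for any gene whose groups do not overlap, so it adds nothing to these counts. FOSL2 and JUND were the members that did not overlap the blank libraries in all 3 comparisons, which share those libraries. The share of all genes that did the same was not counted, so this does not set these members apart. The median log2 fold change of the 9 members was 0.32 with siSRSF1-2, 0.37 with siSRSF1-3 and -0.32 with OE-LINC01134, beside 0.02, -0.01 and 0.05 over all genes.

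**Figure D3:**
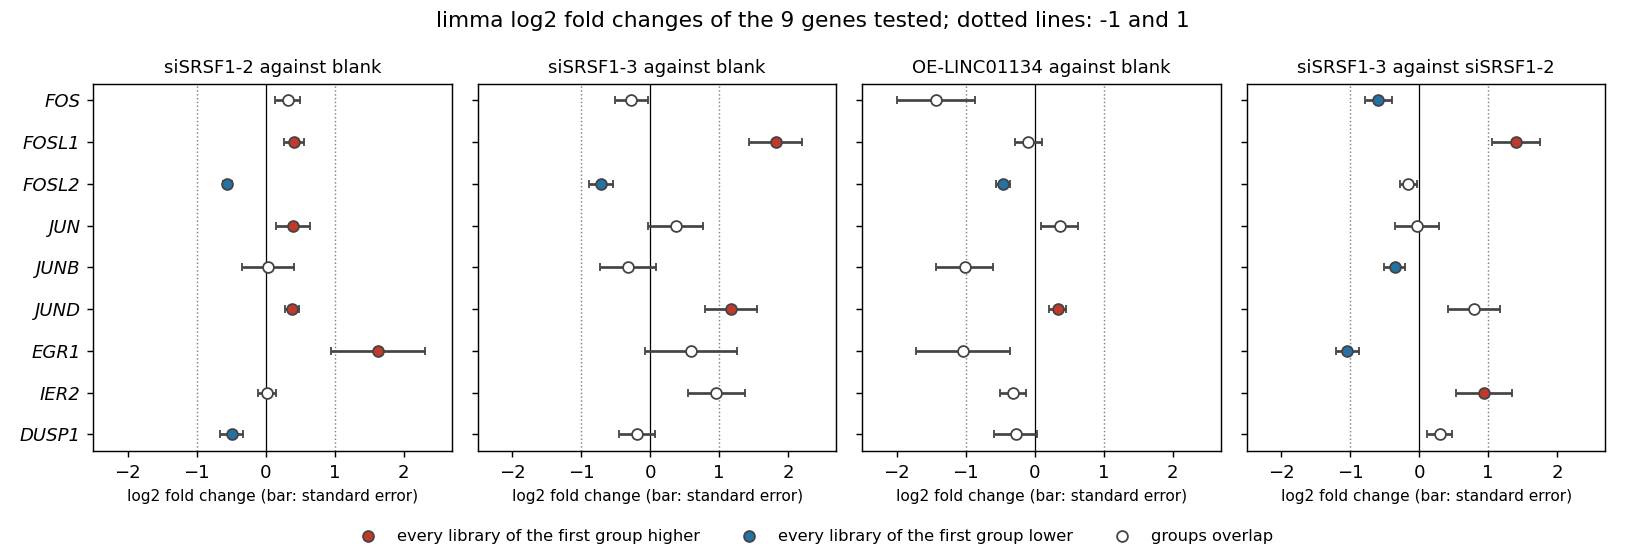
Log2 fold change of log2(FPKM + 0.1) for the 9 members tested in each of the 4 comparisons, with the standard error as a bar, a filled point where the libraries of the groups do not overlap, and dotted lines at -1 and 1. FOSL1 with siSRSF1-3 (1.82) and EGR1 with siSRSF1-2 (1.63) are the points furthest to the right, and none of the points has an adjusted p under 0.05 together with a fold change beyond the dotted lines.

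Gene length and scaling moved with the siSRSF1-3 values. The tested protein-coding genes were split into 4 groups of near-equal size by length. In siSRSF1-3 replicates 1, 2 and 3 the shortest group (207 to 3204 bases) had a median log2 difference from the mean of the blank libraries of 0.60, 0.48 and 0.03, and the longest group one of -0.40, -0.33 and 0.02. FOSL1 (1887 bases), JUND (1863 bases) and IER2 (3072 bases) are in the shortest group and were ordered in the same way over these libraries. JUNB, EGR1 and DUSP1 are in it too and were not. FOSL2 (7157 bases) is in the group of 5037 to 7463 bases, whose medians in these libraries were -0.17, -0.13 and 0.005. In replicate 3, where the length groups differed little, FOSL1 was 1.19 above the blank mean on the log2 scale. The part of this gradient in the members' values was not tested. The library sizes implied by the FPKM were 0.712 and 0.888 of the reads on genes in siSRSF1-3 replicates 1 and 2 and 0.990 to 1.09 of them elsewhere. Scaled to the libraries' own read totals, the median of all genes moved to -0.26 with siSRSF1-3, and with equal FPKM sums it moved to -0.43 against blank and -0.57 against siSRSF1-2. Under equal FPKM sums the log2 fold changes with siSRSF1-3 against blank were 1.37 for FOSL1, 0.72 for JUND, 0.51 for IER2 and -1.16 for FOSL2. Between the siRNAs they were 0.83 for FOSL1, 0.21 for JUND, 0.36 for IER2 and -1.62 for EGR1. No member passed the threshold under either scaling.

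Among 13 other genes that code for AP-1 or dimer partners (ATF, BATF, JDP2 and MAF proteins), 11 were tested. Of these 1 passed the threshold, with OE-LINC01134, where 0.85% of all genes passed. MAF, a large MAF transcription factor, fell with OE-LINC01134 from 5.93 ± 1.36 to 1.67 ± 0.313 FPKM (SD, n = 3, log2 fold change -1.75, limma adjusted p = 0.0370). MAFG, a small MAF protein without a transactivation domain, was 64.5 ± 1.58 FPKM with siSRSF1-2 and 38.5 ± 3.81 in blank cells (log2 fold change 0.74, limma adjusted p = 0.00327), under the minimum size. ATF4, the amino acid response factor, was at 231 ± 4.68 and 302 ± 8.21 FPKM in these groups (log2 fold change -0.38, limma adjusted p = 0.00497). With siSRSF1-3 the smallest p-values were those of MAF (log2 fold change -0.84) and MAFF (0.98), with limma adjusted p-values of 0.0890 and 0.111. Between the siRNAs they were those of ATF3 (0.58) and ATF4 (1.29), with limma adjusted p-values of 0.0725 and 0.0792. Over all 40 basic leucine zipper genes tested, 1 passed with siSRSF1-2 (cAMP responsive element binding protein 3 like 1, log2 fold change -1.20, limma adjusted p = 0.0250), beside 4.95% of all genes. With siSRSF1-3 0 passed by limma, beside 1.26%, and 5 had an unadjusted p under 0.05 with the fold change, beside 14.8%. With OE-LINC01134 1 passed, MAF, beside 0.85%.

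Of 34 other immediate early genes, 32 were tested, and 4 passed with siSRSF1-2, 2 with siSRSF1-3 and 1 with OE-LINC01134. The shares of all 17538 genes that passed were 4.95%, 1.26% and 0.85% in the same order. Whether the list differed from other sets of 32 genes was not tested. RHOB, a small GTPase, rose with siSRSF1-2 from 34.2 ± 6.27 to 89.0 ± 0.973 FPKM (SD, n = 3, log2 fold change 1.39, limma adjusted p = 0.00199). KLF2, a Krüppel-like transcription factor, rose with siSRSF1-2 (log2 fold change 1.20, limma adjusted p = 0.00481) and with OE-LINC01134 (1.42, limma adjusted p = 0.0349). SOCS3, an inhibitor of cytokine receptor signaling, fell with both siRNAs, from 4.67 ± 1.31 FPKM to 1.68 ± 0.184 with siSRSF1-2 and 0.986 ± 0.367 with siSRSF1-3. PHLDA1, a pleckstrin homology domain protein, was at 4.32, 7.75 and 7.84 FPKM in blank cells, and fell by 1.34 and 1.98 on the log2 scale with siSRSF1-2 and siSRSF1-3. The list's median log2 fold change was 0.13, -0.15 and -0.23 with siSRSF1-2, siSRSF1-3 and OE-LINC01134. Between the siRNAs none passed by limma (2 at an unadjusted p under 0.05 with the fold change, beside 16.4% of all genes). RHOB (-0.96) and TRIB1 (-0.65) had the smallest p-values there, with limma adjusted p-values of 0.0638 and 0.0703.

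EGR2, EGR3 and EGR4, relatives of EGR1 that were singled out after their values were seen, were far lower than EGR1. EGR2 was at 0.196, 1.06 and 1.09 FPKM in blank cells, at 0.0655, 0.189 and 0.0569 with OE-LINC01134, at 1.40, 1.51 and 1.44 with siSRSF1-2 and at 0.263, 0.725 and 0.826 with siSRSF1-3. Blank replicate 1 was again the lowest blank library. EGR4 was at 0.952, 0.840 and 1.16 FPKM with siSRSF1-2, at 0.0608, 0.681 and 0.553 in blank cells, at 0.494, 0.844 and 0.580 with siSRSF1-3 and at most 0.0290 with OE-LINC01134. EGR2 was therefore higher in each siSRSF1-2 library than in the other 9, as EGR1 was, while the siSRSF1-2 and siSRSF1-3 values of EGR4 overlapped. EGR3, which was too low to be tested, was between 0.192 and 0.215 FPKM with siSRSF1-2, inside its blank range of 0.0595 to 0.283. None of the comparisons of EGR2 and EGR4 passed the threshold (limma adjusted p from 0.0859 to 0.863).

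**Figure D4:**
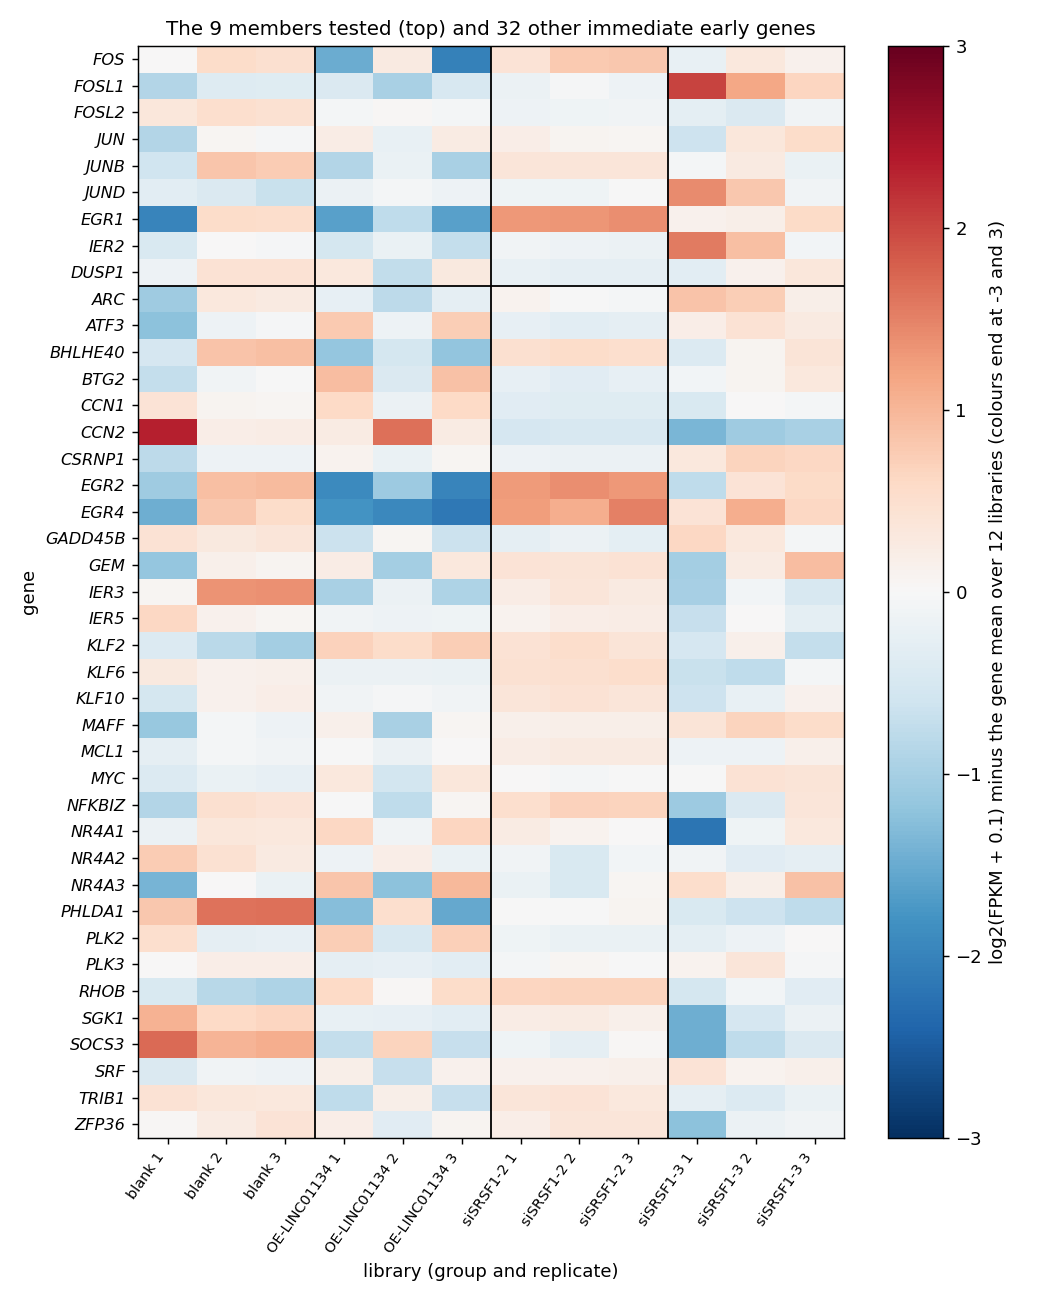
Each of the 9 members tested (above the line) and 32 other immediate early genes (below it), as log2(FPKM + 0.1) minus the gene's mean over the 12 libraries, with red above and blue below that mean. EGR1, EGR2 and EGR4 are red in the 3 siSRSF1-2 libraries and blue in blank replicate 1 and the OE-LINC01134 libraries, and FOSL1, JUND and IER2 are deepest red in siSRSF1-3 replicate 1.

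The mRNAs of the kinases and factors that switch on these genes passed in none of the comparisons. Of 23 genes from RAF to ERK, JNK, p38 and SRF, 22 were tested, and 0 passed by limma. At an unadjusted p under 0.05 with the fold change there were 0 in each comparison with blank and 2 between the siRNAs. Of all genes 6.49%, 14.8% and 7.45% met this with siSRSF1-2, siSRSF1-3 and OE-LINC01134, and 16.4% between the siRNAs. BRAF, a RAF kinase, was at 1.97 ± 0.125 FPKM with siSRSF1-2 and 1.15 ± 0.0753 in blank cells (SD, n = 3, log2 fold change 0.74, limma adjusted p = 0.00756), under the minimum size. RPS6KA3, an ERK-activated kinase, and MAP2K7, which activates JNK, had the smallest p-values with siSRSF1-3 (log2 fold changes -0.88 and 0.57, limma adjusted p = 0.0945 and 0.122). With OE-LINC01134 they were those of ELK4, a partner of SRF, and MAPK14, which encodes p38 alpha (0.74 and -0.46, limma adjusted p = 0.0679 and 0.105). Between the siRNAs RPS6KA3 gave -1.07 (limma adjusted p = 0.0749).

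Of 17 genes of the dual specificity phosphatases and of ERK feedback, 14 were tested and 1 passed, with siSRSF1-2, where 4.95% of all genes passed. DUSP6, a cytoplasmic ERK phosphatase, fell with siSRSF1-2 from 1.75 ± 0.730 to 0.609 ± 0.123 FPKM (SD, n = 3, log2 fold change -1.30, limma adjusted p = 0.0429). It was at 0.912 FPKM in blank replicate 1 and at 2.27 and 2.05 in the other blank libraries. With siSRSF1-3 the smallest p-values were those of DUSP8 (1.26) and DUSP7 (-1.0), with limma adjusted p-values of 0.0541 and 0.0839. With OE-LINC01134 they were those of ETV5 (0.55) and DUSP16 (1.15), with limma adjusted p-values of 0.0502 and 0.0687. Between the siRNAs they were those of DUSP8 (0.70) and DUSP14 (0.67), with limma adjusted p-values of 0.0767 and 0.0800.

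Genes known as AP-1 targets had mostly negative log2 fold changes against blank cells. Of 23 such genes 21 were tested, and 4 fell past the threshold with siSRSF1-2, 3 with siSRSF1-3 and 0 with OE-LINC01134. Of all genes 4.95%, 1.26% and 0.85% passed in either direction. With OE-LINC01134 12 target genes had an unadjusted p under 0.05 with the fold change, beside 7.45% of all genes. PLAU, the urokinase protease, fell from 32.5 ± 2.18 FPKM to 4.91 ± 0.284 with siSRSF1-2 and 6.62 ± 1.30 with siSRSF1-3 (SD, n = 3, log2 fold changes -2.70 and -2.29, limma adjusted p = 0.000293 and 0.0184). CCND1, which encodes cyclin D1, fell from 33.3 ± 6.17 FPKM to 11.2 ± 0.546 and 5.93 ± 0.717 in the same groups. VIM, the mesenchymal filament protein, and MMP2, a gelatinase, fell with siSRSF1-2 by 1.39 and 1.35 on the log2 scale. ITGA2, a collagen receptor subunit, fell with siSRSF1-3 from 17.4 ± 0.878 to 2.31 ± 1.15 FPKM (log2 fold change -2.97, limma adjusted p = 0.0356). The median log2 fold change of the list was -0.80 with siSRSF1-2, -0.44 with siSRSF1-3 and -1.26 with OE-LINC01134, beside 0.02, -0.01 and 0.05 over all genes, and 17, 17 and 19 of the 21 genes were below 0. The 5 osteoblast and mesenchymal markers tested, among them VIM, had medians of -0.89, -0.60 and -0.96 in the same comparisons, with 4, 4 and 5 of them below 0, and their summed level was 267 to 404 FPKM in blank cells, 138 to 142 with siSRSF1-2, 148 to 260 with siSRSF1-3 and 135 to 348 with OE-LINC01134. The part of the markers in the target genes' values was not tested.

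With OE-LINC01134 the target genes of smallest p were MMP2 (-1.48) and CCND1 (-1.60), with limma adjusted p-values of 0.0502 and 0.0600. For PLAU and VIM, OE-LINC01134 replicate 2 lay nearer to the blank cells than replicates 1 and 3 did. For MMP3 it lay further from the blank mean of 105 FPKM, at 59.0 FPKM beside 111 and 112 in replicates 1 and 3. PLAU was at 1.98, 13.6 and 1.66 FPKM in OE-LINC01134 replicates 1, 2 and 3, and VIM at 68.7, 248 and 69.4. Between the siRNAs MMP2 (0.91) and CCND1 (-0.91) had the smallest p-values, with limma adjusted p-values of 0.0517 and 0.0581. The secreted targets MMP1 and CXCL8, singled out after their values were seen, split the blank group: MMP1 was at 2.86, 43.2 and 42.9 FPKM and CXCL8 at 2.97, 281 and 291 in blank replicates 1 to 3.

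Heat shock genes served as a check on handling, to which early genes respond. Of 6 tested none was past the threshold upward in any comparison. HSPB1 fell with siSRSF1-2 (log2 fold change -1.15, limma adjusted p = 0.0329), where 4.95% of all genes passed. HSPA1B fell with OE-LINC01134 (-1.18, limma adjusted p = 0.0431), where 0.85% did. HSPA1B has a near-identical copy, HSPA1A, with which reads may be shared. With siSRSF1-3 the smallest p-values were those of HSPA1B (-0.81) and HSPH1 (-0.88), with limma adjusted p-values of 0.0866 and 0.150. Their median log2 fold change was -0.54, -0.60 and -0.74 with siSRSF1-2, siSRSF1-3 and OE-LINC01134. Each of the 6 genes was highest within the blank group in replicate 1, the library that was low for EGR1 and JUNB. HSPA1A was at 12.2, 5.24 and 4.59 FPKM and HSPB1 at 232, 112 and 110 in blank replicates 1 to 3. HSPH1 was at 18.6, 8.35 and 8.83 FPKM there and between 9.14 and 10.1 with siSRSF1-2, which is above blank replicates 2 and 3. HSPB1 was at 357, 160 and 66.4 FPKM in the siSRSF1-3 libraries, ordered as FOSL1, JUND and IER2 were. The part of these differences in the members' values was not tested.

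Genes whose levels ran most like those of 4 members over the 12 libraries were sought among 14491 tested genes with a mean of at least 1 FPKM. For FOS they were transmembrane protein 44, coronin 2B and zinc finger protein 365 (Pearson's r of 0.979, 0.969 and 0.966 on the log2 scale). For FOSL1 they were N-terminal EF-hand calcium binding protein 1, endonuclease V and solute carrier family 43 member 3 (0.989, 0.989 and 0.988). For JUN they were GTP binding protein 2, general transcription factor IIH subunit 3 and zinc finger protein 397 (0.971, 0.964 and 0.939), and for EGR1 WD and tetratricopeptide repeats 1, the ANKH pyrophosphate transporter and SRY-box 8 (0.975, 0.966 and 0.965). No other member was among the 3 genes most like any of these members. The libraries of a group share treatment and preparation, so these correlations describe the 12 libraries only.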

How the data were processed

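The authors deposited FPKM per gene for 12 libraries, with gene lengths and coordinates. The labels give the organism as mouse (GRCm38, mm10), yet the identifiers are human. The supplementary methods name poly-T selection, and the labels name another kit than they do. The aligner and counter are not given in the sources used here. Reads were recovered as whole multiples of each library's step (tolerance 0.1, 100% of values). R 4.3.3 and limma 3.58.1 (eBayes with trend) served to fit log2(FPKM + 0.1) for the 17538 of 58735 genes that averaged 0.5 FPKM or more, on the 3 + 3 libraries of each comparison. A call needed a log2 fold change beyond 1 in size and an adjusted p (Benjamini-Hochberg) under 0.05, and this log2 scale understates changes of low genes. Fits were tested on simulated counts drawn independently for each library, without the near-identical libraries and the length gradient of these data. All 144 symbols matched full names.

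The members and lists were chosen with earlier results of these data known. Named from each list were genes past the threshold (up to 3 in each direction, with MMP2, a further target gene that fell with siSRSF1-2, added after its value was seen) or else the 2 with the smallest p, except 1 gene that is not reported here. Alternatives were pseudocounts of 1 and 0.01, no filter or one at 1 FPKM, other scalings, eBayes without trend, one fit over all groups, voom, a replicate block, averaged near-identical libraries and the omission of libraries. The omission of 2 libraries at once and the averaging over all groups were chosen after the data were seen.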

Additional observations from a re-analysis of the deposited data

Results flagged for a closer look

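Several members lay on opposite sides of the blank mean in every library of 2 groups, on the log2(FPKM + 0.1) scale, and the differences between these groups were not tested. EGR1 was above the blank mean in all 3 siSRSF1-2 and all 3 siSRSF1-3 libraries and below it in all 3 OE-LINC01134 libraries, with means 2.67 and 1.63 higher with siSRSF1-2 and siSRSF1-3 than with OE-LINC01134. FOS and JUNB were above it with siSRSF1-2 and below it with OE-LINC01134, with means 1.74 and 1.05 higher with siSRSF1-2. In the siSRSF1-2 libraries JUNB was only 0.027 to 0.041 above the blank mean, and it was below blank replicates 2 and 3. IER2 was above the blank mean with siSRSF1-3, by 0.073 in the lowest library, and below that mean with OE-LINC01134, with a mean 1.27 higher with siSRSF1-3. The blank mean these rest on includes blank replicate 1, which differed from the mean of the other blank libraries by -2.51 for EGR1 and -1.40 for JUNB.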

How the results depend on the processing

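Of 162 values of the members in each comparison, 159 with siSRSF1-2, 153 with siSRSF1-3, 154 with OE-LINC01134 and 153 between the siRNAs kept their direction and side of the threshold. The count of members past the threshold was 0 in all 4 comparisons. It became 2 with no minimum fold change (siSRSF1-2, FOSL2 and JUND), beside 2452 genes higher and 2250 lower of the 17538 tested. With 1 fit over all groups it became 2 with siSRSF1-3, beside 1245 genes higher and 1177 lower. In that fit it became 1 between the siRNAs, beside 1472 and 1259. With voom it became 1 with siSRSF1-3, beside 176 and 411. With the unadjusted p it became 2 with siSRSF1-3, 2 with OE-LINC01134 and 2 between the siRNAs, beside 14.8%, 7.45% and 16.4% of all genes. Omitting libraries gave 0 to 0, 0 to 3, 0 to 3 and 0 to 4 members with siSRSF1-2, siSRSF1-3, OE-LINC01134 and between the siRNAs. The 3 with siSRSF1-3 and the 4 between the siRNAs (FOSL1, JUND, IER2 and, for the latter, EGR1) came without siSRSF1-3 replicate 3. Of all genes 2192 were then higher and 1992 lower against blank, and 2807 and 2551 between the siRNAs. The 3 with OE-LINC01134 came without blank replicate 1 and OE-LINC01134 replicate 2, a setting chosen after the data were seen: FOS -2.27, JUNB -1.72 and EGR1 -2.17 (limma adjusted p = 0.00144, 0.000173 and 9.38e-05). Only the near-identical pairs are left there, so these p-values rest on the spread within such pairs. Over all genes 895 were higher and 1551 lower in that fit. The cause was not tested.

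Some directions turned, all of values that had missed the threshold. With siSRSF1-2 these were JUNB (-0.43) and IER2 (-0.13) without blank replicate 1 and IER2 (-0.0033) without siSRSF1-2 replicate 1. With siSRSF1-3 they were JUN (-0.077, equal FPKM sums) and EGR1 (0.59 with all libraries, -0.25 without blank replicate 1, -0.17 without siSRSF1-3 replicate 1 as well). With OE-LINC01134 they were FOSL1 (0.078) and DUSP1 (0.068) without replicate 2. Between the siRNAs they were DUSP1 (-0.0078 with own read totals, -0.28 with equal sums) and JUN (0.02 without siSRSF1-2 replicate 1, 0.33 without siSRSF1-3 replicate 1). Over the omissions of 1 library, these ranged from -0.43 to 0.28 for JUNB and -0.13 to 0.11 for IER2 with siSRSF1-2, -0.25 to 1.01 for EGR1 with siSRSF1-3, -0.26 to 0.078 for FOSL1 and -0.47 to 0.068 for DUSP1 with OE-LINC01134, and -0.26 to 0.33 for JUN between the siRNAs.

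Same-numbered replicates deviated together weakly or not at all (correlations from -0.08 to 0.21). The highest were 0.191 and 0.212, between OE-LINC01134 and siSRSF1-3 for replicates 2 and 3. Such correlations cannot tell whether same-numbered libraries shared a day or a batch. With a replicate block 0 members passed in each comparison, and all genes past the threshold went from 389 higher and 479 lower to 300 and 381 with siSRSF1-2, from 58 and 163 to 0 and 0 with siSRSF1-3, from 45 and 104 to 1 and 3 with OE-LINC01134, and from 6 and 9 to 0 and 0 between the siRNAs. With 1 fit over all groups they were 134 and 180, 1245 and 1177, 174 and 515, and 1472 and 1259. Equal FPKM sums moved the split with siSRSF1-2 to 604 higher and 340 lower. With 3 libraries a group, and near-identical ones among them, the spread within a group is poorly known, and FOS with OE-LINC01134 and FOSB rested on few reads.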

Other observations

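Members differed in how closely the libraries of a group repeated. The log2 range over the 3 siSRSF1-2 libraries was 0.01 for JUNB, 0.03 for DUSP1 and 0.03 for FOSL2, beside a median of 0.15 over all genes, and 0.38 for FOS. Over the 3 siSRSF1-3 libraries it was 1.66 for IER2, 1.53 for JUND and 1.38 for FOSL1, beside a median of 0.75. In the OE-LINC01134 group FOS had a range of 2.31, above that of 97.8% of the genes tested, and JUND one of 0.12, above that of 11.1%.

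Replicate 2 of the OE-LINC01134 group differed from the mean of the other 2 libraries by 2.04 for FOS and 0.87 for EGR1, and by -1.04 for DUSP1 and -0.51 for FOSL1, on the log2 scale. The FOS difference was larger than that of 98.3% of the genes tested. In the blank group, replicate 1 differed from the others by -2.51 for EGR1, -1.40 for JUNB and -0.89 for JUN, and by -0.14 for FOSL2 and 0.25 for JUND.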
